A study of Mus musculus with 11 samples.

Results

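A list of 37 very long genes was followed in cerebellar granule cell precursors (GCps) lacking the chromatin remodeler CHD7. The genes were listed by name for their very long annotated spans, and the list was chosen with earlier results of these data known. It is a part of the 223 counted protein-coding genes that span 500 kb or more. In the GENCODE vM21 annotation all 37 span at least 500 kb, with spans from 616 to 2271 kb (median 1139 kb). A span is that of the annotated gene. Transcripts can start inside it, so the transcribed unit can be shorter than the span. They are 37 of the 38924 genes counted in each library, and 34 of them had enough counts to be among the 16436 genes tested. Of the list, 27 genes span more than 1000 kb and 4 span more than 2000 kb.

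RNA-Seq was performed on 2 control and 2 Chd7 cko libraries of GCps purified from C57Bl/6J mice at P7. The paper describes the mouse lines as backcrossed to C57Bl/6J, so the background need not be wholly of that strain. The cko carried Math1-Cre and 2 floxed Chd7 alleles (Math1-Cre Chd7fl/fl). The control is labelled wild type with the genotype Chd7flox/+, but in the submitters' account of the extraction the control carries 2 floxed alleles, so it has 1 floxed allele or 2, and no Cre is named for it in either place. Math1-Cre recombines in the granule cell lineage and is inefficient in the posterior cerebellum, and lobules IX and X were removed before dissociation with papain and enrichment on Percoll. Cerebella were pooled by genotype, and no source says that the 2 libraries of a genotype came from separate pools of animals. The sex-linked RNA given below differed between the cko libraries, so these did not hold RNA of the same animals alone, while for control nothing separates a technical from a biological spread. The p-values measure the spread between these libraries only.

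Most of the listed genes encode proteins of the neuronal surface and the synapse: adhesion molecules, organizers of synaptic contacts, receptors, channels and the scaffolds beneath them. GCps are the proliferating progenitors of cerebellar granule neurons, and such genes are generally used more as these cells leave the cell cycle, migrate and form synapses. Transcribing a unit of this length takes RNA polymerase II a long time and depends on elongation factors and on topoisomerases that release the torsion built up along the template, and several of the loci, among them Fhit, Wwox, Immp2l and Macrod2, are known as chromosomal fragile sites in human cells.

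Almost all of each locus is intron. Exons made up between 0.0925% and 2.84% of the span (median 0.933%), and the exonic length, 1.49 to 23.8 kb (median 11.3 kb), was also longer than that of the tested protein-coding genes, whose median was 4.47 kb of exon in a median span of 25.1 kb. The counts were taken per gene with reads required to lie wholly within annotated features, which leaves out reads that reach into introns if exons were counted, the default of HTSeq. The genes are spread over 15 chromosomes, with Dmd and Il1rapl1 on the X chromosome. Exonic sequence shared with another annotated gene exceeded 1% of the exonic length in 10 of the 37 (up to 9.0% in Mdga2, 6.84% in Fhit, 5.26% in Fgf14, 4.70% in Tenm4 and 4.66% in Nrg1). Strand use in the counting is not known here, and part of the reads of these genes could belong to the overlapping gene.

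The libraries held 61836588 to 77346481 counts. Over all tested genes, 260 were called (Benjamini-Hochberg adjusted p under 0.05, quasi-likelihood test of edgeR), which is 1.58% of the genes tested, with 0.809% called higher and 0.773% called lower in cko. Chd7 itself was counted over the whole gene at 322 and 319 CPM (counts divided by the scaled total of their library) in control and 392 and 355 CPM in cko (log2 fold change 0.22, SE 0.10, adjusted p = 0.418), and since that count covers exons outside the deleted part it does not check the genotype. Cko replicate 1 differed from the other libraries in sex-linked RNA: Xist was at 793 CPM there and at 0.114 to 0.548 CPM in the other 3 libraries, and Ddx3y, on the Y chromosome, had no count there and 63.7 to 69.1 CPM in the others. Of 9 granule cell precursor markers none was called by edgeR, 3 had an unadjusted p under 0.05 and DESeq2 called 2. The summed levels of the 9 were 5603 and 5619 CPM in control and 5242 and 5769 CPM in cko, so markers of the labelled cell type were present in all 4 libraries. The sum hides opposite differences among those 3: Ccnd2 was higher (1132 and 1187 against 1645 and 1537 CPM), and Neurod1 (1051 and 999 against 475 and 780 CPM) and Pax6 (589 and 552 against 460 and 468 CPM) were lower. Of 10 tested markers of postmitotic neurons 3 were called lower (Gap43, Nefl and Nefm), and the summed level of that list was 3001 and 3000 CPM in control against 1787 and 2180 CPM in cko. In both cko libraries 9 of the 10 were lower, 9 had an unadjusted p under 0.05 and DESeq2 called 8, 7 lower and 1 higher. Grin2c of the same list went the other way, from 1.10 and 2.59 CPM in control to 23.0 and 15.5 CPM in cko (adjusted p = 0.0566 in edgeR, called by DESeq2). Of 11 skeletal muscle markers 5 were called higher, with summed levels of 11.0 and 7.87 CPM in control against 35.9 and 70.7 CPM in cko. All 11 were higher in both cko libraries and had an unadjusted p under 0.05, and DESeq2 called all 11. All 8 oligodendrocyte lineage markers had positive fold changes, with 1 called higher (Olig2) and summed levels of 374 and 335 CPM in control against 409 and 428 CPM in cko. Of 8 endothelial markers none was called by edgeR, but all were higher in both cko libraries, 7 had an unadjusted p under 0.05 and DESeq2 called 5 (summed levels 279 and 241 CPM against 370.2 and 376 CPM). Of 7 astrocyte and Bergmann glia markers 6 had negative fold changes, with none called by edgeR, 3 at an unadjusted p under 0.05 and 2 called by DESeq2 (825 and 894 CPM against 687 and 711 CPM).

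The 34 tested genes did not shift in one direction. Of these 34, 4 genes, or 11.8% beside 1.58% of all tested genes, were called: Erbb4 and Dlg2 were lower, and Thsd7b and Auts2 were higher in cko. The log2 fold change was positive for 19 and negative for 15, with a median of 0.07 (quartiles -0.40 and 0.35) beside a median of -0.00056 over all tested genes. Both cko libraries lay above both control libraries for 11 of the 34 genes (22.7% of all tested genes did so) and below them for 12 (21.2% of all tested genes), while the libraries overlapped for 11. The differences were large in size without a common sign: the median absolute log2 fold change was 0.39, beside 0.15 over all tested genes, and 12 of the 34 (35.3%) differed by more than 1.5-fold in either direction, beside 1871 of the 16436 tested genes (11.4%). At an unadjusted p under 0.05 there were 15 of the 34 (44.1%) and 2231 of all tested genes (13.6%). The list was chosen with earlier results of these data known, and no test was run over it as a whole. With 2 libraries a group an exact permutation of the libraries cannot give a two-sided p below 0.3333.

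**Figure D1:**
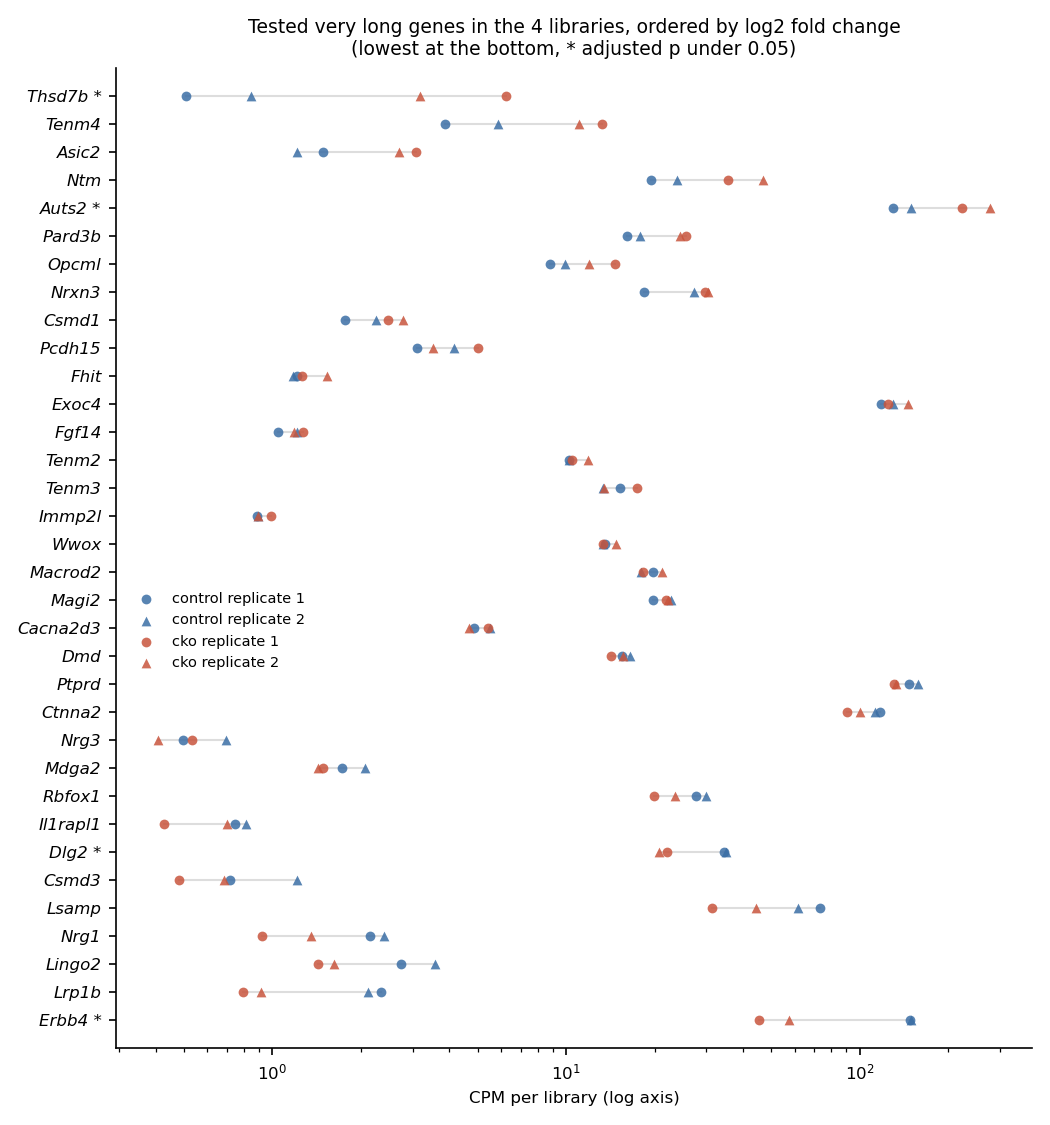
Level of each of the 34 tested very long genes in the 4 libraries, in CPM on a log axis, with control in blue and cko in red (circles, replicate 1; triangles, replicate 2) and genes ordered by their log2 fold change. Thsd7b at the top rose from 0.509 and 0.845 CPM to 6.24 and 3.17 CPM and Erbb4 at the bottom fell from 148 and 149 CPM to 45.5 and 57.6 CPM, while the libraries overlap for most genes in the middle of the order.

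Levels of different genes were compared as CPM per kb of exon, since a longer transcript yields more reads. In control the highest of the 37 were Ctnna2 (16.5 CPM per kb), Erbb4 (12.03), Exoc4 (9.79), Ptprd (6.67), Rbfox1 (6.54) and Auts2 (6.08), and the lowest tested genes were Thsd7b (0.0556 CPM per kb) and Csmd3 (0.0571). In cko Auts2 stood at 10.9 CPM per kb, beside 10.7 for Exoc4 and 13.7 for Ctnna2, and Erbb4 at 4.17 CPM per kb. The 3 genes that were not tested were at the bottom of the list: Ctnna3, an alpha-catenin of cell junctions, had 21 and 8 counts in control and 4 and 6 in cko, Nkain2, which interacts with the Na,K-ATPase, had 18 and 9 against 5 and 7, and Sgcz, a sarcoglycan of the dystrophin complex, had 2 and 5 against 2 and 2. They could not be tested and are in none of the counts over the 34 genes.

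Sequence at the start of the genes was taken from RefSeq. Windows of 300 bases, running from 250 bases before to 50 bases after a start site (build GRCm38.p6), were matched by symbol for 29 of the 37 genes, 45 windows in all. The windows of the gene that fell the most and of the gene that rose the most are shown because they lie at opposite ends of the list and their start sites are within 0.002 kb of the annotated gene start. Erbb4 reads on the minus strand of chr1:69108010-69108309, and Thsd7b on the plus strand of chr1:129273054-129273353. Capitals mark the E-box motif CAGCTG, its variant CAGATG and the TATA box motif TATAAA, each searched on both strands.
Erbb4: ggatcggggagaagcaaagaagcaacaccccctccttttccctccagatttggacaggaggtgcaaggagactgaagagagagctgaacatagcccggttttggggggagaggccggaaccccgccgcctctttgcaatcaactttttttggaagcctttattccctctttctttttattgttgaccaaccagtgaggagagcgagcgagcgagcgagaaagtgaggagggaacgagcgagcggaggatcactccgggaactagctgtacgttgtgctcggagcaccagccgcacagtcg
Thsd7b: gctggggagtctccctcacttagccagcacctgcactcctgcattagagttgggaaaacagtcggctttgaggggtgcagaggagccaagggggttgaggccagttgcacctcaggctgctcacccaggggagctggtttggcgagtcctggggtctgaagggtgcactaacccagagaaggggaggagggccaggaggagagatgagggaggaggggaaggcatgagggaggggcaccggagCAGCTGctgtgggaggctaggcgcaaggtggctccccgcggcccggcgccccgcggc
The Erbb4 window has 55.3% GC, 17 CpG dinucleotides and none of the 3 motifs, and the Thsd7b window has 66.0% GC, 10 CpG dinucleotides and 1 CAGCTG. Over all 32851 windows the median GC was 52.7% and the median number of CpG dinucleotides 7, and 16.3% held CAGCTG, 17.2% CAGATG and 13.6% TATAAA. In the window nearest to the gene start, the 29 genes ranged from 26.3% to 81.3% GC (median 53.7%) and from 0 to 43 CpG dinucleotides (median 12). For Dlg2 that window lies 614 kb inside the annotated gene, at chr7:91090536-91090835 on the plus strand, with 44.7% GC and 3 CpG dinucleotides. Among other genes it lies 723 kb inside for Pcdh15, 550 kb for Ntm and 485 kb for Fgf14. No RefSeq window was matched for Auts2, Csmd1, Csmd3, Lrp1b, Nrg1, Ptprd, Sgcz and Wwox.

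The 3 listed genes of neuregulin signalling, the receptor Erbb4 and the ligands Nrg1 and Nrg3, had negative fold changes, with 1 of 3 called. Shorter genes of the same families, which are not on the list, had values of both signs, and none was called. Erbb3 (1.55 on the log2 scale) and Nrg4 (0.16) were positive, and Erbb2 (-0.38), Egfr (-0.34) and Nrg2 (-0.19) were negative. Egfr had the highest CPM of these, at 109 and 125 CPM in control and 90.9 and 93.4 CPM in cko. Erbb4 (ENSMUSG00000062209, chr1:68032186-69108059, minus strand, 1076 kb), the receptor tyrosine kinase that binds neuregulins, was at 148 and 149 CPM in control and at 45.5 and 57.6 CPM in cko. Both cko libraries lay far below the control libraries, which were nearly equal (means 149 ± 1.09 and 51.5 ± 8.56 CPM, SD, n = 2 each). The log2 fold change was -1.53 (SE 0.13, adjusted p = 0.00847, quasi-likelihood test of edgeR, Benjamini-Hochberg), and Erbb4 was called under each of the 8 alternative fits. Nrg1, a ligand of ErbB receptors, was at 2.14 and 2.40 CPM in control and 0.921 and 1.35 CPM in cko. Its groups did not overlap, and it was not called (log2 fold change -1.0, SE 0.28, adjusted p = 0.154 in the same test). Nrg3, another ligand, was at 0.406 to 0.696 CPM over the 4 libraries, which overlapped (log2 fold change -0.33, SE 0.36). Beside the lower Erbb4 stood the lower summed level of postmitotic neuron markers. In the other direction, 6 of 6 tested inhibitory interneuron markers had positive fold changes, with summed levels of 76.7 and 95.1 CPM in control and 100.0 and 106 CPM in cko. None of these 6 was called by edgeR or by DESeq2, and 1 had an unadjusted p under 0.05 in edgeR. The part of either marker list in the Erbb4 difference was not tested, and in bulk RNA fewer cells of a type and less RNA per cell cannot be told apart.

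Among the scaffold, junction and cytoskeleton-linked genes, 1 of 6 tested was called. Dlg2 (ENSMUSG00000052572, chr7:90476672-92449247, plus strand, 1973 kb), a scaffold of the postsynaptic density with 1.38% of its exonic length shared with another gene, was at 34.5 and 34.9 CPM in control and 21.98 and 20.7 CPM in cko. The replicates of each genotype were close to each other and the groups were well apart (means 34.7 ± 0.330 and 21.3 ± 0.894 CPM, SD, n = 2 each). Dlg2 fell by 0.70 on the log2 scale (SE 0.11, adjusted p = 0.0369, quasi-likelihood test of edgeR, Benjamini-Hochberg). The call was lost without control replicate 1 (adjusted p = 0.0874) and without control replicate 2 (adjusted p = 0.192), when a single control library carried the comparison.

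Pard3b, a cell polarity scaffold, had the next lowest p of this group, at 16.1 and 17.8 CPM in control and 25.6 and 24.4 CPM in cko. Both cko libraries were above both control libraries, and it did not pass the threshold (log2 fold change 0.56, SE 0.12, adjusted p = 0.0823, quasi-likelihood test of edgeR, Benjamini-Hochberg); 4.43% of its exonic length is shared with another gene. Exoc4, a subunit of the exocyst that tethers secretory vesicles, was at 118 and 129.8 CPM in control and 124 and 146 CPM in cko, and its groups overlapped. Ctnna2, the neuronal alpha-catenin that links cadherins to actin, was lower in both cko libraries by a small amount (log2 fold change -0.27, SE 0.10). Magi2, a synaptic scaffold, and Dmd, which encodes dystrophin, had fold changes near 0 (0.05 and -0.10 on the log2 scale) with overlapping libraries. Dmd was at 14.2 to 16.5 CPM throughout, beside the skeletal muscle markers given above, and it is X-linked, as is Il1rapl1.

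The large extracellular-domain proteins held both the steepest rise of the list and one of its steepest decreases in value. Thsd7b (ENSMUSG00000042581, chr1:129273302-130219278, plus strand, 946 kb), which encodes a thrombospondin-repeat protein, was at 0.509 and 0.845 CPM in control and 6.24 and 3.17 CPM in cko. Both cko libraries were above both control libraries, and the gap between the cko libraries was wider than that between cko replicate 2 and either control library (means 0.677 ± 0.238 and 4.70 ± 2.17 CPM, SD, n = 2 each). The log2 fold change was 2.81 (SE 0.42, adjusted p = 0.0388, quasi-likelihood test of edgeR, Benjamini-Hochberg). Without control replicate 1 the adjusted p was 0.0567 and without control replicate 2 it was 0.0878. The level remained low in both genotypes, 0.386 CPM per kb in cko.

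Lrp1b, an endocytic receptor of the LDL receptor family, was at 2.35 and 2.12 CPM in control and 0.791 and 0.911 CPM in cko. The groups were well apart for so low a level, and Lrp1b just missed the threshold (log2 fold change -1.40, SE 0.25, adjusted p = 0.0517, quasi-likelihood test of edgeR, Benjamini-Hochberg). Pcdh15, a cadherin of the hair cell tip link and the member of this group with the most counts, was at 3.09 and 4.16 CPM in control and 5.01 and 3.53 CPM in cko, overlapping. The related CUB and sushi domain genes Csmd1 and Csmd3 had fold changes of opposite sign, 0.39 and -0.73 on the log2 scale, and neither was called.

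Of the 2 nuclear and RNA-binding regulators, 1 was called higher. Auts2 (ENSMUSG00000029673, chr5:131437333-132543344, minus strand, 1106 kb), which encodes a nuclear protein found in Polycomb complexes, was at 129 and 149 CPM in control and 222 and 278 CPM in cko. Both cko libraries were above both control libraries (means 139 ± 13.98 and 250.0 ± 39.7 CPM, SD, n = 2 each). It rose by 0.85 on the log2 scale (SE 0.14, adjusted p = 0.0429, quasi-likelihood test of edgeR, Benjamini-Hochberg), and the call was lost without control replicate 1 (adjusted p = 0.125) and without control replicate 2 (adjusted p = 0.116). Rbfox1, a neuronal splicing factor, was at 27.6 and 29.9 CPM in control and 19.9 and 23.5 CPM in cko. Its groups did not overlap, with the difference not called (log2 fold change -0.41, SE 0.13, adjusted p = 0.208 in the same test).

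The IgLON adhesion molecules, closely related GPI-anchored proteins of the immunoglobulin family, had values on both sides of 0 and none was called by edgeR, although all 3 had an unadjusted p under 0.05 and DESeq2 called 2. Lsamp, on chromosome 16, was at 73.4 and 61.7 CPM in control and 31.4 and 44.4 CPM in cko. Ntm, on chromosome 9, was at 19.4 and 23.8 CPM in control and 35.6 and 46.6 CPM in cko. Neither pair of groups overlapped, with log2 fold changes of -0.83 (SE 0.18, adjusted p = 0.103) for Lsamp and 0.93 (SE 0.17, adjusted p = 0.0560) for Ntm (quasi-likelihood test of edgeR, Benjamini-Hochberg). Opcml, also on chromosome 9, was at 8.80 and 9.93 CPM in control and 14.7 and 11.95 CPM in cko (log2 fold change 0.51, SE 0.16).

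Of the 3 teneurins, transmembrane proteins that bind latrophilins across cell contacts, none was called by edgeR, 1 had an unadjusted p under 0.05 and DESeq2 called that gene, Tenm4. Tenm4 was at 3.88 and 5.87 CPM in control and 13.3 and 11.1 CPM in cko. Both cko libraries were above both control libraries, and the threshold was narrowly missed (log2 fold change 1.32, SE 0.23, adjusted p = 0.0517, quasi-likelihood test of edgeR, Benjamini-Hochberg). Tenm3, the teneurin with the most counts, was at 15.2 and 13.4 CPM in control and 17.4 and 13.5 CPM in cko, and Tenm2 was at 10.2 CPM in both control libraries and at 10.5 and 11.9 CPM in cko. Neither differed by more than 0.13 on the log2 scale. Tenm1, a teneurin that is not on the list, had a negative value (-0.91, SE 0.29) and was not called.

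The synaptic adhesion and organizer genes held 4 negative and 1 positive fold change, and none of the 5 was called by edgeR, with 1 at an unadjusted p under 0.05 and 1 called by DESeq2. Lingo2, a leucine-rich repeat protein, was at 2.73 and 3.58 CPM in control and 1.43 and 1.63 CPM in cko. The groups did not overlap (log2 fold change -1.05, SE 0.24, adjusted p = 0.108, quasi-likelihood test of edgeR, Benjamini-Hochberg). Ptprd, a receptor phosphatase that organizes presynaptic sites and the longest gene of the list at 2271 kb, was at 146 and 158 CPM in control and 131 and 133 CPM in cko. Its difference was small, at -0.21 on the log2 scale (SE 0.09). Nrxn3, a neurexin, had the positive fold change (0.39), and control replicate 1 (18.5 CPM) lay apart from the other 3 libraries (27.2 to 30.4 CPM). Mdga2, which binds neuroligins, and Il1rapl1, a partner of Ptprd at synapses, reached at most 2.07 CPM and 0.812 CPM and had fold changes of -0.37 and -0.47 on the log2 scale.

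Among ion channels and channel partners none of 3 tested genes was called by edgeR, 1 had an unadjusted p under 0.05 and DESeq2 called 1. Asic2, an acid-sensing cation channel, was at 1.49 and 1.21 CPM in control and 3.07 and 2.70 CPM in cko. Both cko libraries were above both control libraries (log2 fold change 1.09, SE 0.24, adjusted p = 0.0909, quasi-likelihood test of edgeR, Benjamini-Hochberg). Cacna2d3, an auxiliary subunit of voltage-gated calcium channels, was at 4.86 and 5.50 CPM in control and 5.42 and 4.67 CPM in cko, and Fgf14, an intracellular partner of sodium channels, was at 1.04 and 1.21 CPM against 1.27 and 1.19 CPM. Both overlapped between genotypes.

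The enzymes of large loci varied least among the roles, with fold changes of 0.06 to 0.22 on the log2 scale, all 4 positive. None was called by edgeR or by DESeq2, and none had an unadjusted p under 0.05. Macrod2, an ADP-ribosylhydrolase with the most counts of the group, was at 19.8 and 18.0 CPM in control and 18.3 and 21.2 CPM in cko. Wwox, an oxidoreductase, was at 13.6 and 13.3 CPM against 13.4 and 14.8 CPM, and Fhit, a diadenosine polyphosphate hydrolase, was at 1.21 and 1.18 CPM against 1.26 and 1.53 CPM. Immp2l, a mitochondrial peptidase, was between 0.888 and 0.986 CPM in all 4 libraries. Macrod2 (1998 kb) and Fhit (1612 kb) are among the longer genes of the list, and had small differences. Over the 34 genes Spearman's rho of span with the absolute log2 fold change was 0.02, and with the signed fold change -0.31, a description over genes that share the same 4 libraries.

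**Figure D2:**
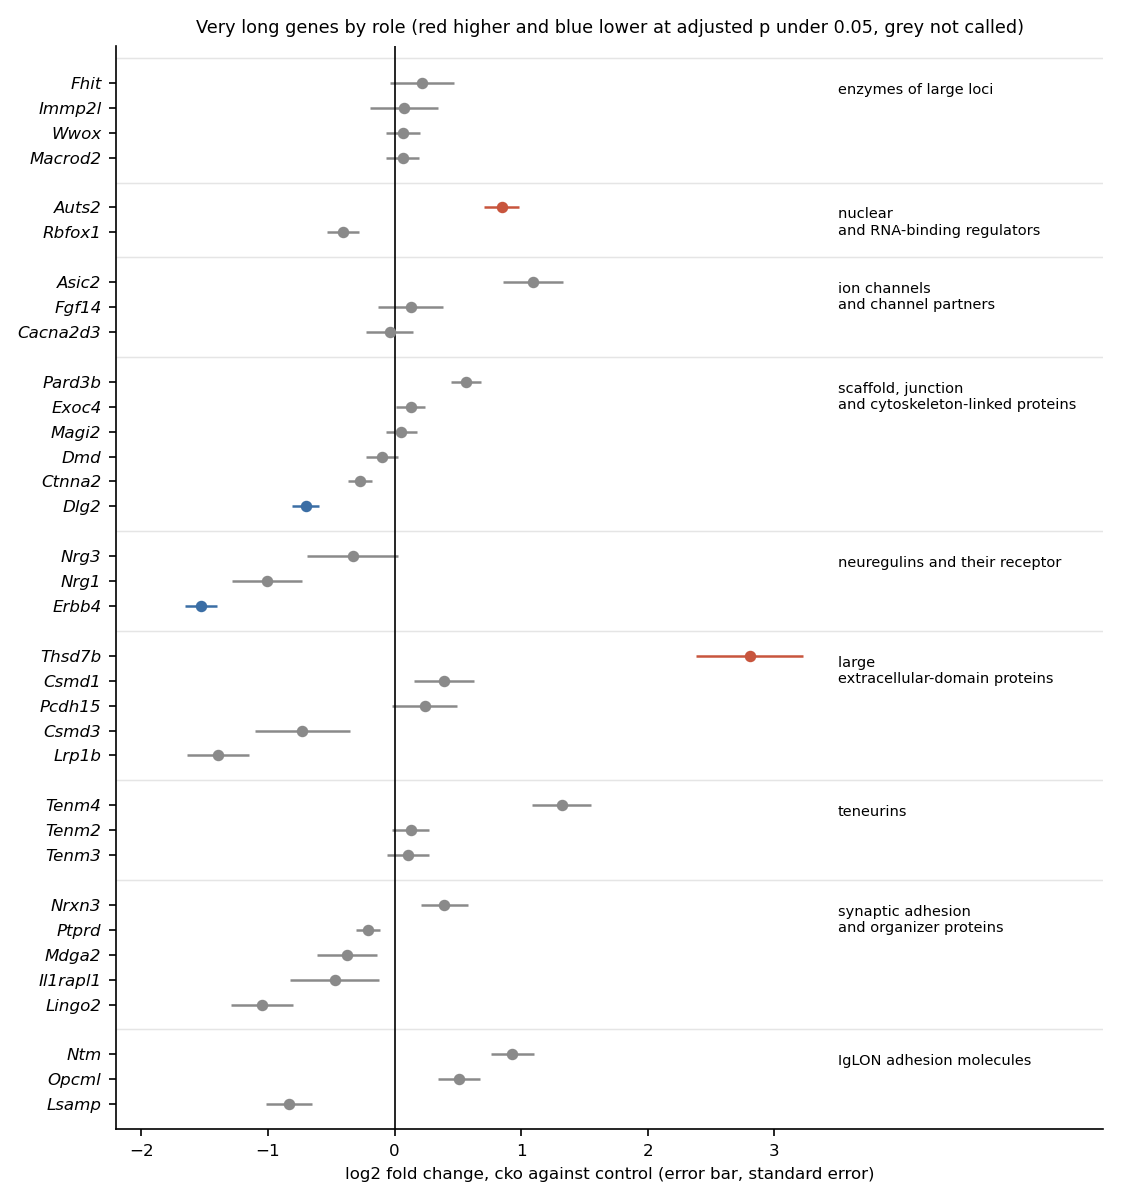
Log2 fold change of cko against control for the 34 tested very long genes, grouped by role, with the standard error as bars (red, called higher; blue, called lower; grey, not called). Points lie on both sides of 0 in 6 of the 9 roles, whereas the 3 listed neuregulin signalling genes are negative and the 3 listed teneurins and 4 enzymes positive.

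The question whether such long genes moved together against shorter genes was described over the tested protein-coding genes by annotated genomic span. The median log2 fold change was -0.06 in the 3455 genes under 10 kb, 0.01 at 10 to 50 kb, 0.05 at 50 to 100 kb, 0.07 at 100 to 250 kb, 0.04 at 250 to 500 kb and -0.03 in the 205 genes of 500 kb or more. The medians thus increased with span up to 100 to 250 kb and decreased beyond it, and the sign of the longest class depended on the libraries: the median was 0.05 without control replicate 2 and -0.11 without cko replicate 2. The median absolute log2 fold change was 0.16 in the shortest class, 0.13 at 10 to 50 kb, and 0.35 in the longest. The share called was 0.984% under 10 kb, 1.03% at 10 to 50 kb, 1.78% at 50 to 100 kb, 3.15% at 100 to 250 kb, 7.20% at 250 to 500 kb and 8.78% at 500 kb or more. In the longest class, which includes the 34 listed genes tested, 5 genes were called higher and 13 lower. Of these the list held 2 and 2, and the 171 other genes held 3 and 11. The share called in the longest class was above that in the shortest in each of the 8 alternative fits, with values from 1.95% against 0.463% (without control replicate 2) to 22.4% against 3.97% (DESeq2). Over the 14554 tested protein-coding genes Spearman's rho of span with the signed log2 fold change was 0.154, a description over genes of the same 4 libraries. With the absolute log2 fold change it was 0.031, so over all these genes the size of the difference hardly followed span.

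**Figure D3:**
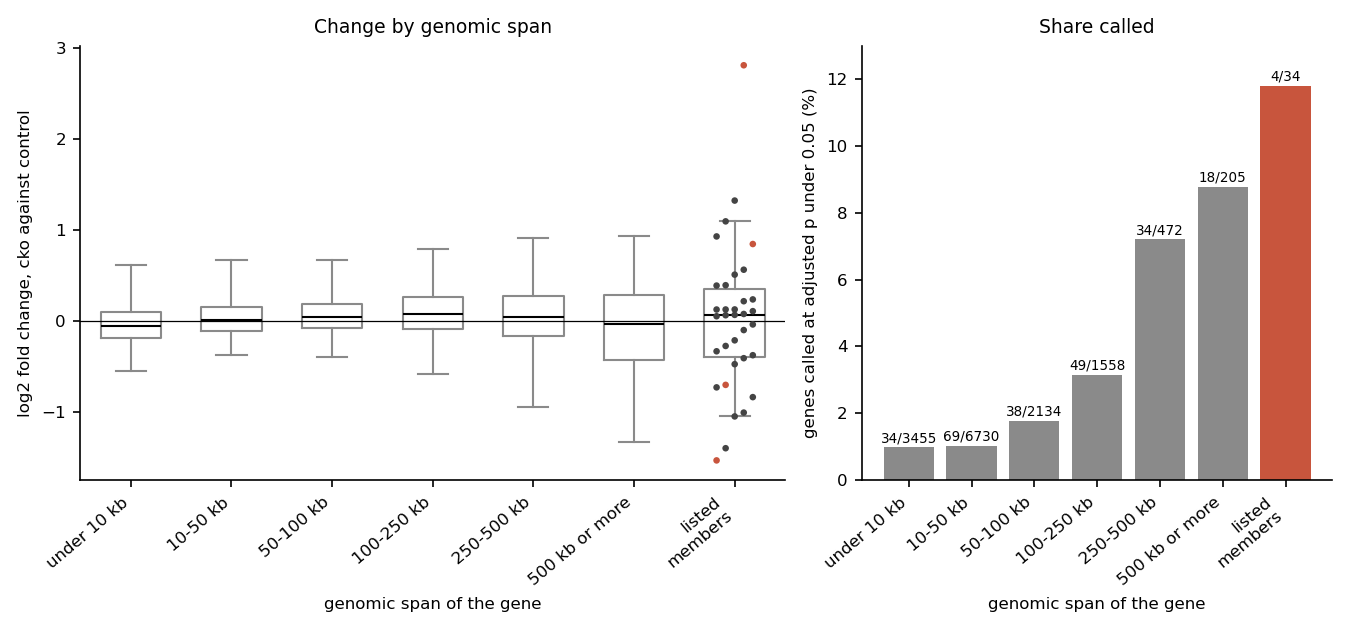
Left, log2 fold changes of tested protein-coding genes by genomic span (box, quartiles and median; whiskers, 5th and 95th percentiles) and of the 34 listed genes (points, red when called). Right, percent of genes called at an adjusted p under 0.05, with the counts above the bars, which increases from 0.984% under 10 kb to 8.78% at 500 kb or more while the medians stay within 0.1 of 0.

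The same shares were taken among genes of similar CPM, after dividing the protein-coding genes into terciles of average log2 CPM. These CPM were not scaled to exonic length, so genes of a tercile are alike in reads and can differ in CPM per kb. In the lowest, middle and highest tercile, 4.17%, 11.6% and 15% of the genes of 500 kb or more were called, beside 1.15%, 1.39% and 0.898% of the genes under 100 kb. The median log2 fold changes in the same terciles were 0.06, -0.03 and -0.21 for genes of 500 kb or more and 0.11, -0.00298 and -0.04 for genes under 100 kb. The listed genes, which are part of the genes of 500 kb or more, fell into these terciles as 16, 12 and 6, with 1, 1 and 2 called and medians of 0.02, 0.09 and -0.24. Without sign, the median log2 fold changes of the listed genes were 0.43, 0.26 and 0.55, beside 0.27, 0.12 and 0.09 for genes under 100 kb. The 6 in the highest tercile were Erbb4, Lsamp, Ptprd, Ctnna2, Exoc4 and Auts2, of which the first 4 had negative fold changes.

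The libraries of 1 genotype also differed along gene length. The median difference in log2(CPM + 1) of replicate 2 minus replicate 1 was 0.09 in control and 0.10 in cko for genes of 500 kb or more, and -0.05 and -0.03 for genes under 10 kb. For the listed genes it was 0.11 and 0.10, beside a median difference between genotypes (cko minus control) of 0.06. The part of this difference along length in the results by span was not tested. Taken without sign, the median difference of the listed genes was 0.146 between the control libraries, 0.166 between the cko libraries and 0.273 between genotypes, and in genes under 10 kb the same values were 0.128, 0.165 and 0.119. A genotype value here is a difference between means of 2 libraries and a replicate value one between single libraries, so the former would be the smaller of them if nothing differed but noise, and no test was made from them.

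**Figure D4:**
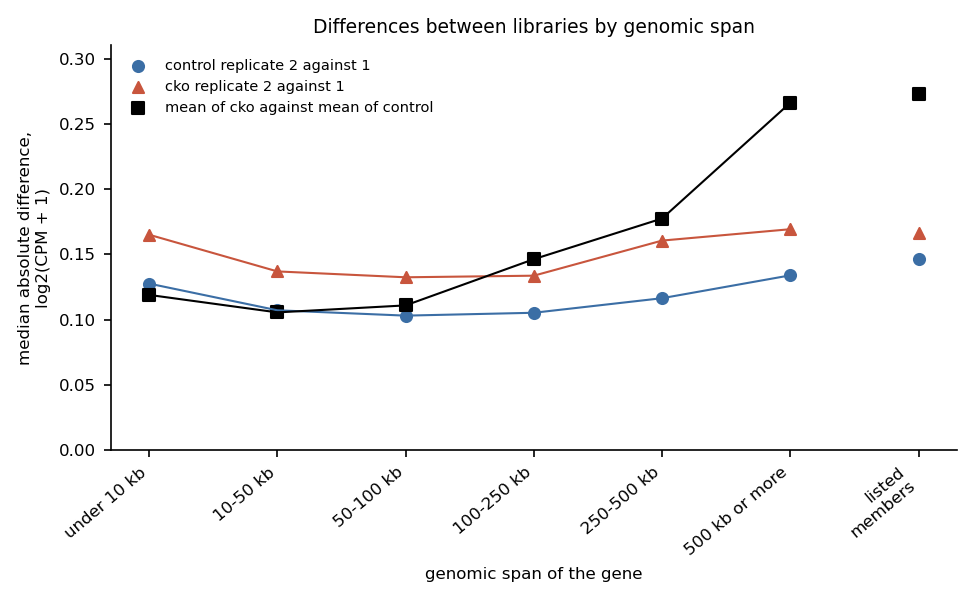
Median absolute difference in log2(CPM + 1) between the 2 control libraries (blue), the 2 cko libraries (red) and the genotype means (black), by genomic span of protein-coding genes and for the 34 listed genes. The difference between genotypes is 0.119 under 10 kb, 0.106 at 10 to 50 kb and 0.111 at 50 to 100 kb. It increases beyond that to 0.266 at 500 kb or more, where the differences between replicates are 0.134 and 0.169.

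The other tested genes of 500 kb or more, 171 protein-coding genes outside the list, had 14 called (8.19%), 3 higher and 11 lower. That count was 3 without control replicate 2, 29 without cko replicate 2, 26 with no filter on low counts and 35 with DESeq2. The called genes with the lowest adjusted p among those that fell were Nkain3 (log2 fold change -1.97), which like the listed Nkain2 interacts with the Na,K-ATPase, Cadps2 (-2.54), a priming factor of dense-core vesicles, Nav3 (-1.12), a microtubule-binding neuron navigator, Edil3 (-1.58), an integrin-binding matrix protein, and Adgrb3 (-1.17), an adhesion receptor of synapses. The 3 that rose were Rbms3 (0.99), an RNA-binding protein, Unc5d (1.23), a netrin receptor, and Ntrk3 (0.90), a neurotrophin receptor. Cadps2 had the highest CPM of these, with 458 and 427 CPM in control and 60.1 and 92.3 CPM in cko.

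Relatives of the listed genes from the same protein families were mostly shorter. They held 2 called genes among 47 tested (4.26%, beside 1.58% of all tested genes), both lower, with a median log2 fold change of -0.07. DESeq2 called 7 of the 47, and 6 were called by edgeR without cko replicate 2 and 1 without control replicate 2. Of the 37 relatives under 500 kb 13 (35.1%) had an unadjusted p under 0.05. The share was 13.6% of all tested genes and 39.5% of the protein-coding genes of 500 kb or more. Among the same 37 relatives 1 was called (2.70%), beside 1.58% and 8.78%. It was Cacna2d1, the calcium channel subunit related to the listed Cacna2d3, at 138 and 144 CPM in control and 76.2 and 85.9 CPM in cko (log2 fold change -0.80, SE 0.10, adjusted p = 0.0242, quasi-likelihood test of edgeR, Benjamini-Hochberg). Of the 10 relatives of 500 kb or more 1 was called, Nkain3. Erbb3, the receptor related to Erbb4 and a gene of 22.1 kb, was at 0.405 and 0.298 CPM in control and 1.12 and 0.959 CPM in cko, and was not called (adjusted p = 0.0827 in the same test).

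Topoisomerases and transcription elongation factors, on which transcription of long units depends, did not include a called gene among 34 tested by edgeR, and neither a gene at an unadjusted p under 0.05 nor one called by DESeq2. Their median log2 fold change was 0.01, with 21 positive and 13 negative values between -0.19 and 0.36. The topoisomerases with the highest CPM were Top2a (708 and 917 CPM in control, 825 and 972 CPM in cko), Top2b (578 and 631 against 535 and 594 CPM) and Top1 (280.2 and 314 against 295 and 307 CPM), and in each the groups overlapped. Sfpq, an RNA-binding protein needed for long transcripts, had the highest CPM of the list, at 1005 and 1057 CPM in control and 873 and 931 CPM in cko (log2 fold change -0.19, SE 0.11).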

How the data were processed

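RNA-Seq counts of P7 GCps were used from 2 control and 2 cko libraries. The ATAC-Seq and H3K4me1 samples were not analysed here. The authors deposited raw counts of reads per gene. Adapters were removed with Trim Galore 0.4.1, alignment to mm10 used TopHat2 2.0.14, counting over Ensembl 75 genes used HTSeq 0.6.1p1 in its strict intersection mode, and the authors tested with DESeq2 1.8.1 (versions from the submitters' processing notes). Strand use in counting: not given in the sources used here.

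Counts were tested across all genes with edgeR 4.0.16 in R 4.3.3 (filterByExpr, TMM scaling, glmQLFit with robust estimation, glmQLFTest, Benjamini-Hochberg adjustment, threshold 0.05), and the procedure was tested on simulated data. CPM use TMM-scaled library sizes. Differences between libraries are on log2(CPM + 1). Spans, exons and overlaps are from GENCODE vM21 (GRCm38), which matched 37607 of 38924 identifiers. Group values are mean ± SD over 2 libraries. Listed genes and gene lists were chosen with earlier results of these data known. Values were given for each called gene and, per role, for the 2 genes with the lowest p and the one with the highest CPM. Alternatives were DESeq2 size factors, no filter on low counts, DESeq2 1.42.0, a replicate block, each library left out, and 3 restrictions of the list.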

Additional observations from a re-analysis of the deposited data

How the results depend on the processing

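The 260 called genes became 259 with DESeq2 size factors, 727 with no filter on low counts, 891 with DESeq2 and 83 to 602 with 1 library left out. Of the 34 tested long genes, 4 were called in edgeR, 11 with no filter and 11 with DESeq2 (with Asic2, Lingo2, Lrp1b, Lsamp, Ntm, Pard3b and Tenm4 added to the 4), and 1 to 6 with 1 library left out. It was 1, Erbb4, without control replicate 1 and without control replicate 2, 5 without cko replicate 1 (Ntm added) and 6 without cko replicate 2 (Lsamp and Tenm4 added). With 1 library left out, the lone library of a genotype is assumed to vary like those of the other. The cause of these shifts was not tested. The median log2 fold change of the long genes stayed between -0.0037 (without cko replicate 1) and 0.088 (genes averaging at least 1 CPM), beside the reported 0.07. The limit set for a move was 0.083, the pooled SD between replicates of these genes' median log2(CPM + 1). That SD is of a level, so it does not measure the spread of a median fold change. The median level was 3.39 and 3.47 in control and 3.84 and 3.69 in cko. The sign changed in some fits with 1 library left out for 6 genes, none called in edgeR: Cacna2d3 (-0.14 to 0.066), Macrod2 (-0.046 to 0.18), Magi2 (-0.049 to 0.16), Pcdh15 (-0.027 to 0.47), Tenm3 (-0.076 to 0.28) and Wwox (-0.0084 to 0.15).

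With the replicate number as a replicate block, 1010 genes and 11 long genes were called: Thsd7b was lost (adjusted p = 0.0761, edgeR's quasi-likelihood test), and Asic2, Lingo2, Lrp1b, Nrg1, Ntm, Pard3b, Rbfox1 and Tenm4 were added. The block called 33 of the 171 other genes of 500 kb or more and 12 of the 47 relatives. The labels share only the number, and the deviations of same-numbered libraries from their group means correlated with r = 0.187 for the pair of replicates 1 and, by construction with 2 libraries a group, equally for the pair of replicates 2.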
